A study of Mus musculus with 6 samples.

Results

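Integrins are the adhesion receptors with which leukocytes hold on to marrow stroma, endothelium and matrix. The 8 genes described here were chosen by symbol among the 32285 genes of the count matrices. They are Itga4, which encodes the alpha4 chain CD49d, its beta partners Itgb1 and Itgb7, the alpha chains Itgal (CD11a), Itgam (CD11b) and Itgax (CD11c), their shared beta2 chain Itgb2 (CD18), and Itgb2l, a beta2-like gene of neutrophils. All 8 were found. Itga4 was picked because its difference between the femur and the mandible in cluster 1 was already known from earlier results of these data, so its values, and those of every member in cluster 1, are given as a description with no test.

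Single-cell RNA sequencing had been performed with 10x Genomics 3' chemistry on CD11b+ bone marrow cells of C57Bl/6 mice aged 2 months. There were 3 femur-derived libraries (replicate 1 female, replicates 2 and 3 male) and 3 mandibular-derived libraries (all male). By the labels the femur group came from femurs and tibiae, and by the methods of the study from femurs only. Mandibular marrow was flushed after molar extraction, together with the tooth sockets, and both kinds of marrow were enriched with beads against CD11b. How many mice went into a library is not stated, so p-values measure only the spread between these libraries.

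The 69776 kept cells of 74091 barcodes gave 82962160 to 244946998 unique molecular identifiers (UMIs, each 1 counted molecule) per library, with medians of 6924 to 9158 UMIs per cell. Femur replicate 1 lost 18.5% of its barcodes to the authors' filter, against at most 5.14% in the other libraries. The deposited reference labels called at least 95.2% of the cells Neutrophils in each of clusters 0, 1, 2, 3, 4 and 7. In cluster 4, 98.8% of cells were called in S or G2M phase. Cluster 5 was 50.8% Monocytes and 34.4% Neutrophils by label, and cluster 6 was 85.0% B cells. Cluster 8 held 11 to 160 cells per library and enters only the counts of members and of gene lists below. An Itgam UMI was found in 89.2% to 95.3% of cells per library, and CD11b was the protein used for the selection. The tooth transcripts Amelx, Ambn, Enam and Amtn summed to at most 0.0569 UMIs per 1000000 UMIs of the summed cells (CPM) in the cluster 1 cells of any femur-derived library and to 12.3 to 48.7 CPM in the mandibular-derived ones. Their sums were higher in the mandible without overlap in each of clusters 0 to 7, and their part in the differences below was not tested.

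An integrin works at the cell surface as a pair of an alpha and a beta chain. Alpha4 pairs with beta1 or beta7, and binds VCAM1, fibronectin and, with beta7, MAdCAM1. It holds precursor cells in the marrow and is carried by monocytes and lymphocytes. The beta2 integrins CD11a/CD18, CD11b/CD18 and CD11c/CD18 bind ICAMs, complement fragments and fibrinogen, and serve firm adhesion and phagocytosis. Signals from chemokine and selectin receptors switch integrins from a folded to an open state through talin and kindlin, so a transcript level does not give the adhesive state.

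On the mouse build mm10 (GENCODE vM21), Itga4 (ENSMUSG00000027009) lies on the plus strand at chr2:79255426-79333123, Itgax (ENSMUSG00000030789) on the plus strand at chr7:128129547-128150657, and Itgb2l (ENSMUSG00000000157) on the minus strand at chr16:96422288-96443619. The 250 bases before the RefSeq start (build GRCm38.p6) are shown for these genes because they are the members with the largest differences between sites described below. Capitals mark GAGGAA or its reverse complement TTCCTC, the core of sites of the myeloid factor PU.1, and TGTGGT or its reverse complement ACCACA, the core of RUNX sites.
Itga4, chr2:79255176-79255425, plus strand: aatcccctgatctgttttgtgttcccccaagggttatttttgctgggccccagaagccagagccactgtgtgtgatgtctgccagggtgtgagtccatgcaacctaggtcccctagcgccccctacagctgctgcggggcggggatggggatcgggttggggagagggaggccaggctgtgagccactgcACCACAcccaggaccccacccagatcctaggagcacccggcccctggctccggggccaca
Itgax, chr7:128129300-128129549, plus strand: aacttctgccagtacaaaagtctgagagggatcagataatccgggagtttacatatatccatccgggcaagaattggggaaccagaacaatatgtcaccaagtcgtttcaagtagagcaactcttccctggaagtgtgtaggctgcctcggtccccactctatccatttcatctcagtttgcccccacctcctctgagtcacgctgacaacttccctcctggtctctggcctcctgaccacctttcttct
Itgb2l, chr16:96443615-96443864, minus strand: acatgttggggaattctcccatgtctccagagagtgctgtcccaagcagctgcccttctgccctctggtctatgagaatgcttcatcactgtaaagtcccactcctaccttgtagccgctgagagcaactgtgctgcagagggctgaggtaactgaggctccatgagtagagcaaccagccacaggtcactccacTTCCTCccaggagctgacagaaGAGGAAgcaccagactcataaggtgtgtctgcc
The Itga4 window held 1 RUNX core and no PU.1 core, the Itgb2l window held a PU.1 core on each strand, and the Itgax window held none of these letters. Among 32851 promoter windows of the same length, 23.3% held the PU.1 core and 14.0% the RUNX core on either strand. Of the 8 members, 6 had a promoter in the RefSeq table.

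Itga4 was highest in the monocyte-rich cluster 5 and lowest in cluster 3. In cluster 5 it measured 543, 529 and 389 CPM in femur replicates 1 to 3 and 511, 297 and 373 CPM in mandible replicates 1 to 3. The libraries of the sites overlapped there. In cluster 3 the femur-derived libraries held 28.5, 30.6 and 20.3 CPM and the mandibular-derived ones 22.4, 21.4 and 19.01 CPM. The order of means was clusters 5, 6, 1, 7, 2, 0, 4 and 3. The steps from 5 to 6, from 7 to 2 and from 4 to 3 were seen in 6 of 6 libraries. Those from 1 to 7 and from 2 to 0 were seen in 5, and those from 6 to 1 and from 0 to 4 in 4. In the mandible cluster 6 held 250, 258 and 243 CPM, against 114, 106 and 106 CPM in cluster 1. In the femur it held 325, 233 and 288 CPM, against 250, 292 and 332 CPM. Cluster 0 was above cluster 4 in every femur-derived library and in mandible replicate 1, and below it in mandible replicates 2 and 3. Among the neutrophil-labelled clusters Itga4 was higher in cluster 1 than in cluster 2 by 2.86 to 3.92 times and higher in cluster 2 than in cluster 3 by 1.59 to 4.17 times, over the 6 libraries. Clusters were built from expression, so these orders are a description.

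**Figure D1:**
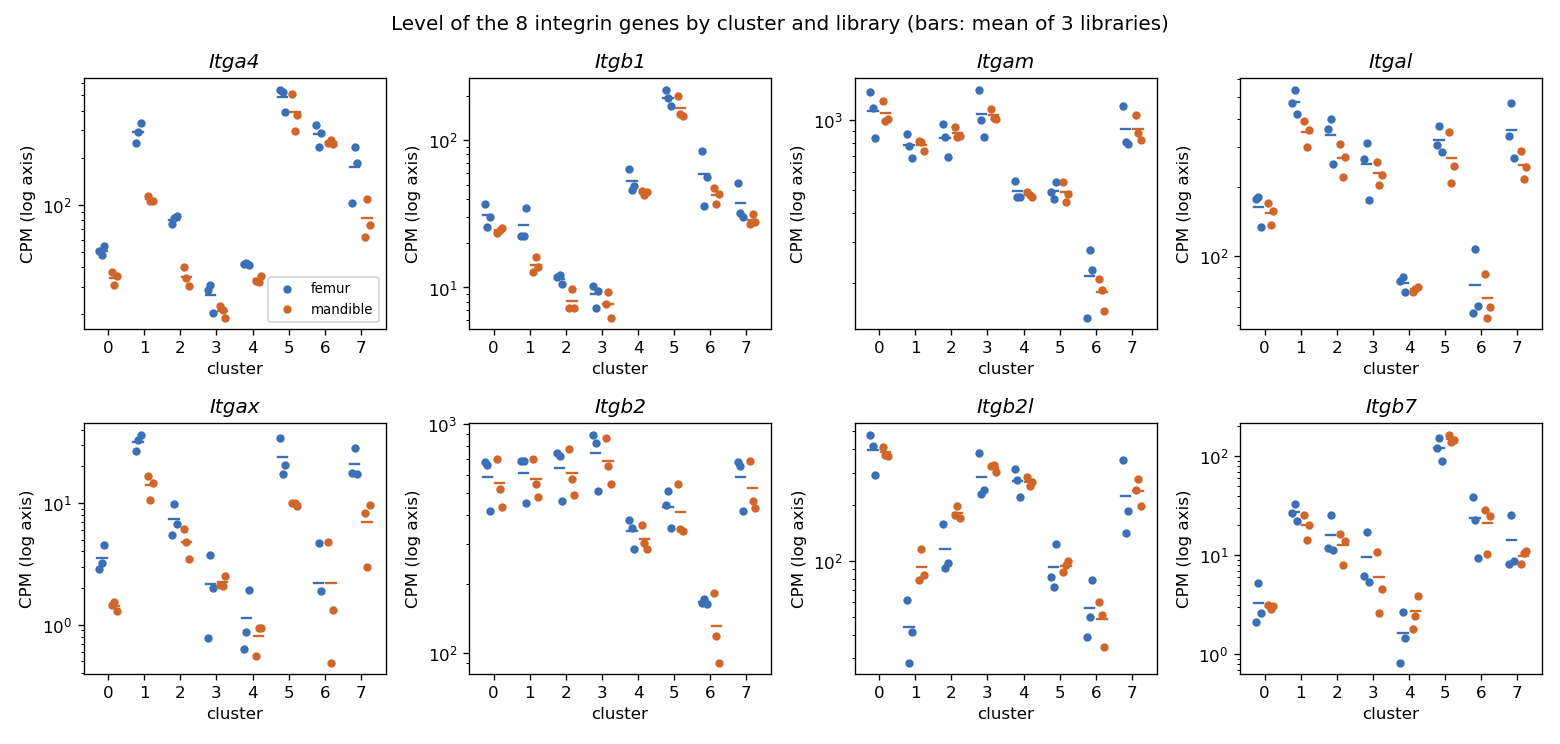
Level of each of the 8 integrin genes (CPM, log axis) in clusters 0 to 7, with 1 point per library and a bar at the mean of 3 libraries per site. Itga4 in cluster 1 sits at 250 CPM or more in the femur-derived libraries and at 114 CPM or less in the mandibular-derived ones. A value of 0 CPM (Itgax in cluster 6 of femur replicate 1) has no place on a log axis.

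The largest Itga4 differences between the sites were in clusters 1 and 2. In cluster 1 Itga4 measured 250, 292 and 332 CPM in the femur-derived libraries and 114, 106 and 106 CPM in the mandibular-derived ones. Every mandibular-derived library was below every femur-derived one, with a log2 fold change (mandible over femur) of -1.28 (SE 0.15). In cluster 2 it measured 74.9, 82.0 and 84.7 CPM in the femur and 39.9, 34.2 and 30.2 CPM in the mandible, again without overlap, with a log2 fold change of -1.18 (SE 0.16). In cluster 2 the 5 monocyte markers summed to 528 to 669 CPM in the femur and 752 to 855 CPM in the mandible, and the 4 eosinophil markers to 4.70 to 8.35 against 2.94 to 4.59 CPM, both without overlap. The same monocyte markers summed to 890 to 1145 CPM in the femur and 1072 to 1153 CPM in the mandible in cluster 3. By label 99.99% of cluster 3 cells were Neutrophils, so this sum is not particular to monocytes. The part of the cluster 2 markers in the Itga4 values was not tested.

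The sites also stayed apart in clusters 0 and 4, with smaller differences. In cluster 0 Itga4 was at 50.3, 47.8 and 54.5 CPM in the femur and at 37.3, 30.6 and 35.0 CPM in the mandible (log2 fold change -0.53, SE 0.13). The 4 erythroid markers of cluster 0 summed to 11.3 to 15.0 CPM in the femur and 34.6 to 151 CPM in the mandible, without overlap. The tooth transcripts there summed to 0.0109 to 0.0351 against 12.6 to 26.5 CPM, and the 5 dendritic cell markers, Itgax among them, to 3.07 to 4.78 against 1.63 to 1.98 CPM, both without overlap. Itgax alone held 2.85 to 4.5 and 1.29 to 1.53 CPM of the dendritic cell sum, which is thus largely Itgax itself. The part of these markers in the values of cluster 0 was not tested. In cluster 4, the cycling cluster, Itga4 was at 41.8, 42.2 and 41.1 CPM and at 32.8, 32.0 and 35.3 CPM (-0.30, SE 0.08). Sums of other markers in cluster 4 were higher in the mandible without overlap. They were 1308 to 1821 CPM in the femur against 1991 to 3495 CPM for the 4 neutrophil precursor markers, 0.980 to 7.47 against 7.62 to 16.7 CPM for the 5 B lineage markers, and 76.1 to 90.9 against 101 to 131 CPM for the 4 T and NK markers. By label, only 1 T cell and 1 NK cell were among the 7621 cells of cluster 4. The part of these sums in the Itga4 values of cluster 4 was not tested. In cluster 7 the femur-derived libraries held 103, 233 and 185 CPM and the mandibular-derived ones 61.9, 109 and 74.6 CPM, so that the lowest femur-derived library lay below the highest mandibular-derived one (-1.01, SE 0.33). Among the neutrophil-labelled cells of cluster 7 it was at 102, 226 and 184 CPM in the femur and at 61.5, 98.8 and 74.2 CPM in the mandible, without overlap. Clusters 3, 5 and 6 overlapped as well, with log2 fold changes of -0.31 (SE 0.16), -0.34 (SE 0.20) and -0.20 (SE 0.20).

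Of the 8 members, 3 were lower in the mandible without overlap in cluster 0, where this held for 8.63% of all genes tested, 4 in cluster 1 (background 16.9%), 2 in cluster 2 (8.41%), 2 in cluster 4 (10.1%), 1 in cluster 5 (4.29%) and 1 of 7 tested in cluster 7 (7.91%). Higher in the mandible without overlap were 1 member in cluster 1 (background 4.88%) and 1 in cluster 2 (6.48%), both Itgb2l, and 1 of 6 tested in cluster 8 (1.26%), which was Itgb1. The lowest library of cluster 8 held only 4 Itgb1 UMIs, and the shares of its cells with an Itgb1 UMI overlapped between the sites. Itga4, picked for its known difference, was among the lower members in clusters 0, 1, 2 and 4. Beside it were Itgb1 and Itgax in cluster 0, and Itgb1 alone in clusters 2 and 4. Since cluster 1 and Itga4 chose the genes, nothing is read from the counts of cluster 1 or from those that hold Itga4. The median log2 fold change of the members tested, Itga4 included, was -0.04 in cluster 0, -0.27 in cluster 2, -0.09 in cluster 3, -0.06 in cluster 4, -0.18 in cluster 5, -0.33 in cluster 6 and -0.27 in cluster 7. The medians of all genes tested in these clusters lay between -0.01 and 0.00.

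**Figure D2:**
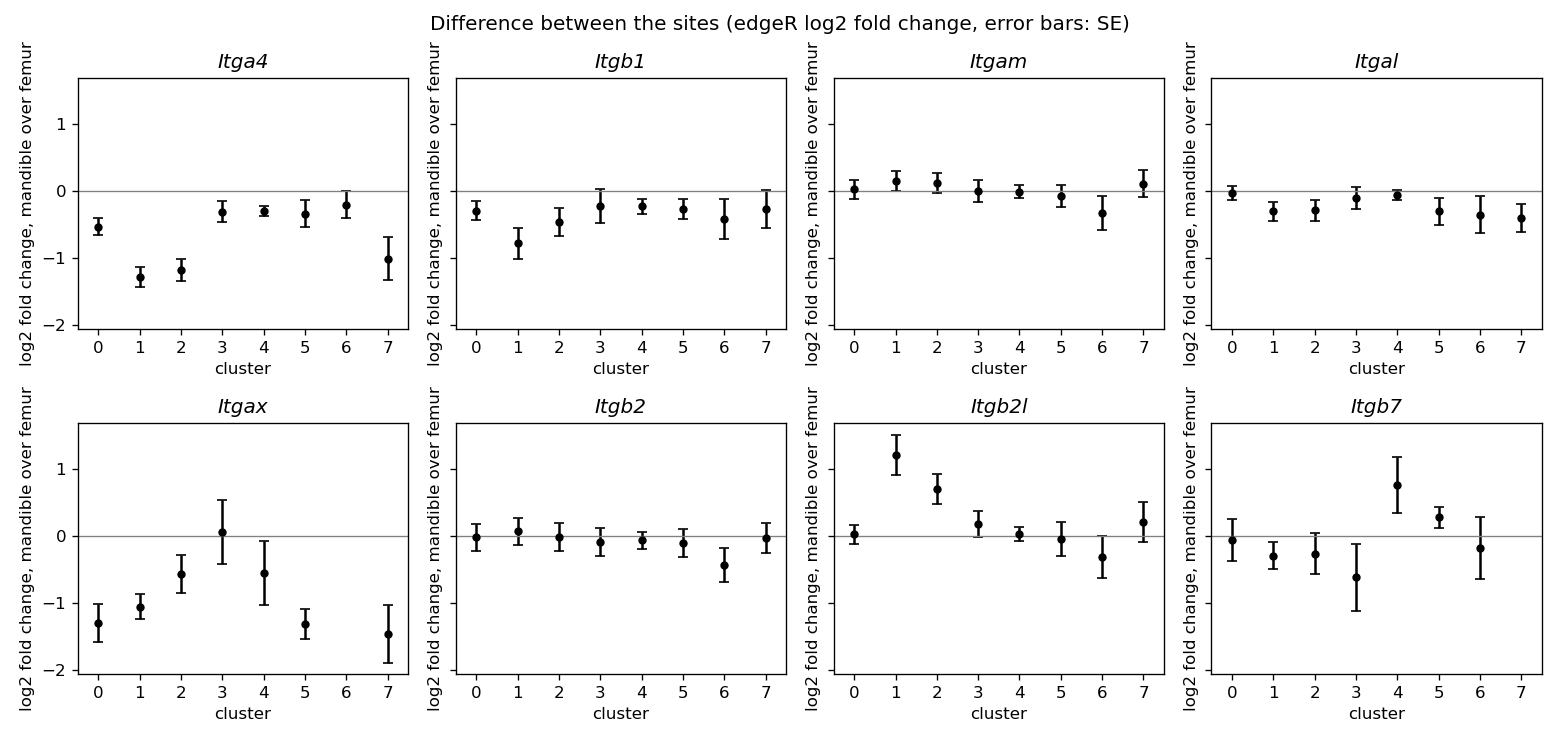
Difference between the sites for each member in clusters 0 to 7, as the edgeR log2 fold change of mandible over femur with its SE. Itga4 and Itgb1 lie below 0 in clusters 0 to 7, Itgax reaches -1.46 in cluster 7, and Itgb2l reaches 1.22 in cluster 1. The lowest library of cluster 7 held only 2 Itgax UMIs.

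Both the share of cells with an Itga4 UMI and the number of UMIs in such cells were lower in the mandible in cluster 1. A UMI was found in 41.5%, 47.1% and 52.6% of femur-derived and 29.0%, 25.8% and 24.2% of mandibular-derived cells. The cells with a UMI held 3.995, 3.31 and 2.89 Itga4 UMIs on average in the femur and 2.30, 2.10 and 2.26 in the mandible. After each cell was thinned to 1000 UMIs, the shares were 18.3%, 20.8% and 27.3% in the femur and 11.2%, 9.36% and 8.79% in the mandible. Median UMIs per cell of cluster 1 were 3827 to 6154 in the femur and 4192 to 5120 in the mandible. In cluster 2 the thinned shares were 7.37%, 6.92% and 7.61% against 3.57%, 2.78% and 2.62%. For comparison, in cluster 3, where the median depth over all cells was 7000 UMIs, thinned shares were 1.01% to 3.14% over the 6 libraries.

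**Figure D3:**
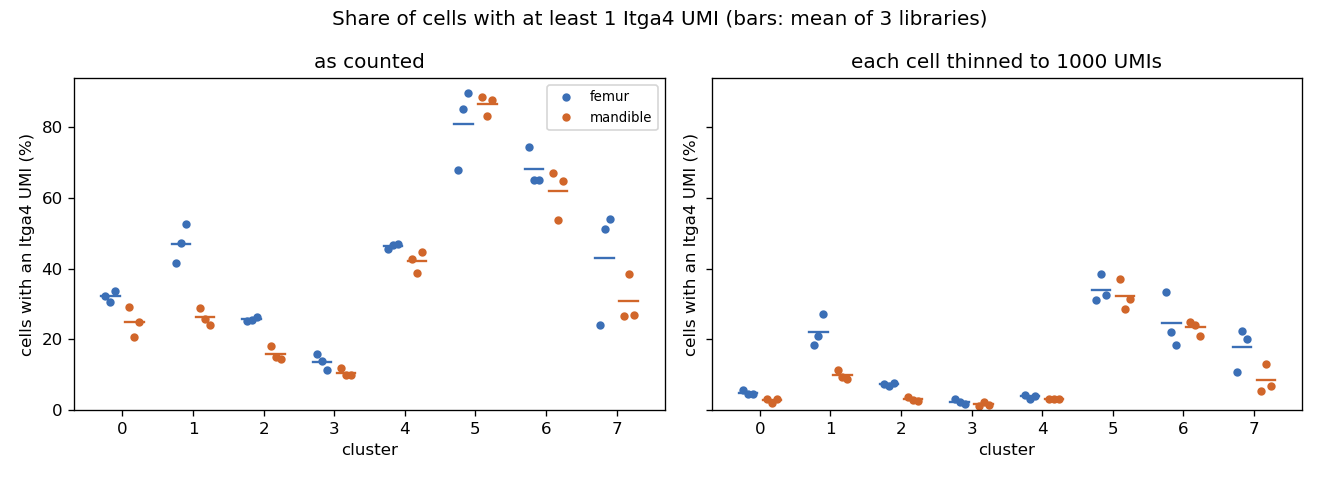
Share of cells with at least 1 Itga4 UMI (percent) in clusters 0 to 7, as counted and after thinning each cell to 1000 UMIs, with 1 point per library and a bar at the mean of 3 libraries. The sites are apart in cluster 1 in both panels, and overlap in cluster 5.

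Within cluster 1 Itga4 was concentrated in one of its finer clusters. At resolution 0.5 of the authors' clustering, cluster 1 held finer clusters 0 and 1 and the small finer clusters 19 and 7, the latter of 120 cells and up to 2.37% of cluster 1 in a library. In finer cluster 0, led by Ifit3, Chn2, Clec4n and Ifit1 against the rest of cluster 1, Itga4 measured 485, 538 and 539 CPM in the femur and 219, 204 and 216 CPM in the mandible. In finer cluster 1, led by Retnlg, Lyz2 and Ly6g, it measured 61.9, 99.95 and 96.8 CPM against 45.2, 28.2 and 33.1 CPM. Both were lower in every mandibular-derived library. Finer cluster 0 made up 44.0%, 46.5% and 56.5% of cluster 1 in the femur and 41.5%, 43.9% and 40.9% in the mandible. Finer cluster 19, of 22 cells or more per library, held 81.7 to 222 CPM in the femur and 113 to 179 CPM in the mandible, which overlapped. In cluster 2 the finer clusters 5 and 9 each separated the sites, at 62.2 to 74.7 against 29.7 to 36.6 CPM and at 90.5 to 101 against 30.2 to 48.2 CPM. In cluster 0 Itga4 overlapped between the sites in finer clusters 3 and 4, at 23.9 to 37.9 against 23.4 to 33.3 CPM and 29.4 to 41.1 against 23.8 to 33.8 CPM. It was apart in finer clusters 7 and 11, at 85.7 to 91.5 against 39.7 to 47.7 CPM and 40.9 to 42.6 against 21.03 to 35.1 CPM. In cluster 4 it overlapped in finer clusters 10 and 11 and was apart in finer cluster 6, at 35.7 to 38.7 against 26.3 to 31.4 CPM.

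**Figure D4:**
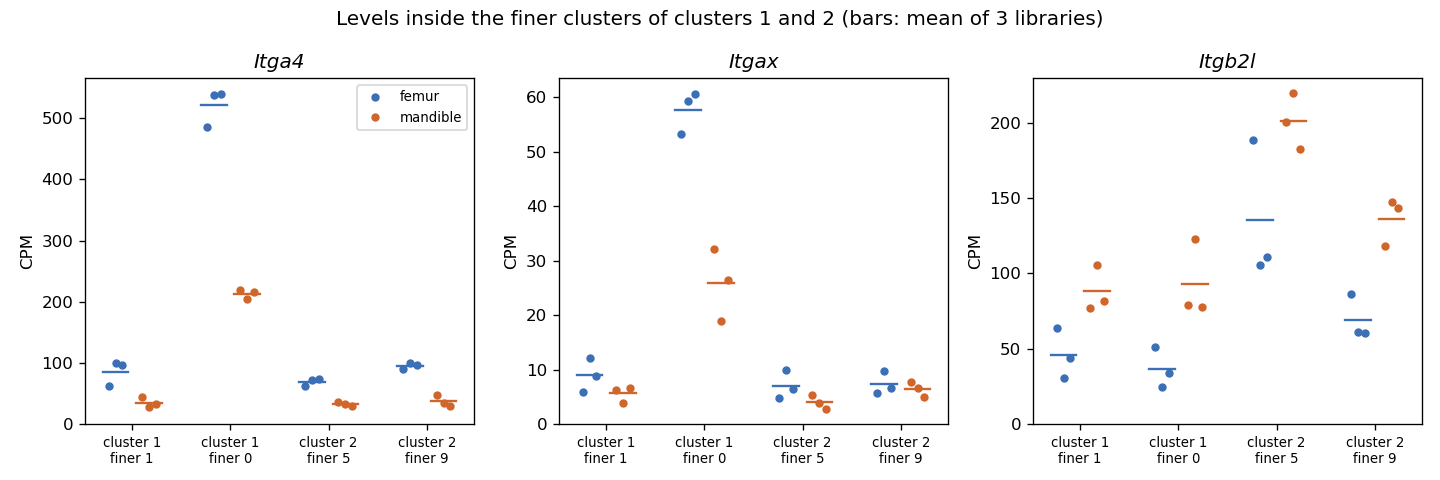
Levels (CPM) of Itga4, Itgax and Itgb2l inside the finer clusters of clusters 1 and 2, with 1 point per library and a bar at the mean of 3 libraries. Itga4 is lower in the mandible in all 4 finer clusters drawn, Itgax is apart in finer cluster 0 of cluster 1, and Itgb2l is higher in the mandible in 3 of them, overlapping in finer cluster 5.

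The Itga4 log2 fold change of cluster 1 was -1.29 among neutrophil-labelled cells alone, -1.28 among cells called G1 and -1.38 without the female femur replicate 1, which compares males alone. Sums of marker genes moved with it in part. In cluster 1 the 5 monocyte markers Csf1r, Ccr2, Ly6c2, F13a1 and Ms4a6c summed to 323 to 426 CPM in the femur and 513 to 648 CPM in the mandible, higher where Itga4 was lower. As given above, this sum was larger still in cluster 3, where nearly all cells were labelled Neutrophils, so it is not particular to monocytes. The 5 macrophage markers summed to 79.0 to 118 CPM and 62.1 to 82.8 CPM, which overlapped. The 4 eosinophil markers summed to 12.97 to 15.3 CPM in the femur and 4.96 to 9.29 CPM in the mandible. The 5 dendritic cell markers, of which Itgax is one, summed to 27.2 to 37.1 CPM in the femur and 10.97 to 17.4 CPM in the mandible, lower without overlap, and Itgax alone held 26.6 to 36.3 and 10.7 to 16.6 CPM of these. All markers of these lists were detected, and their part in the Itga4 difference was not tested.

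Itgb1, the general beta partner of alpha4, followed another order over the clusters. It was highest in cluster 5, at 220, 193 and 171 CPM in the femur and 201, 152 and 146 CPM in the mandible, and lowest in clusters 3 and 2. Over the neutrophil-labelled clusters it was lower in cluster 0 than in 4 and in 3 than in 0 in 6 of 6 libraries, whereas Itga4 was higher in cluster 0 than in 4 in 4 of 6. Between the sites Itgb1 was at 22.5, 22.4 and 34.8 CPM in the femur and 12.8, 16.1 and 13.8 CPM in the mandible in cluster 1, without overlap (log2 fold change -0.78, SE 0.23). In cluster 2 it was at 11.7, 12.1 and 10.5 CPM against 7.21, 9.81 and 7.22 CPM (-0.46, SE 0.20), which did not pass edgeR's quasi-likelihood test with Benjamini-Hochberg adjustment (adjusted p = 0.40). It did not overlap in clusters 0 and 4 either (-0.30, SE 0.14, and -0.23, SE 0.11, with edgeR adjusted p = 0.78 and 0.41). The gaps there were narrow, at 25.6 against 25.2 CPM and 45.7 against 44.9 CPM. Cells called G1 in cluster 0 and G2M in cluster 4 overlapped, while G2M in cluster 0 and S in cluster 4 did not. Thinned shares of cells with an Itgb1 UMI overlapped in clusters 0 and 2 and not in cluster 4, and shares as counted did the reverse.

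Itgb7, the other alpha4 partner, was largely a gene of cluster 5. It measured 122, 152 and 90.4 CPM there in the femur and 165, 140 and 146 CPM in the mandible, overlapping between the sites (log2 fold change 0.28, SE 0.16, edgeR adjusted p = 0.75). The share of its cells with an Itgb7 UMI did not overlap, at 43.3%, 61.2% and 56.6% in the femur and 64.9%, 61.9% and 65.6% in the mandible. After thinning the shares were 10.3%, 12.6% and 10.1% against 16.1%, 14.7% and 12.8%. Both gave p = 0.10 in the exact permutation test, the smallest it allows here, with adjusted p of 0.56 as counted and 0.93 after thinning. The Itgb7 level was also higher in every mandibular-derived library among cells called S, at 90.5, 89.0 and 46.8 CPM against 165, 118 and 128 CPM, and among those called G2M. Among cells called G1 the libraries overlapped. The 5 B lineage markers of cluster 5 were also higher in the mandible without overlap, at 22.5 to 56.9 CPM against 10.2 to 14.8 CPM in the femur, and so were the 4 tooth transcripts, at 15.9 to 1317 CPM against 0.0994 to 0.550 CPM. Their part in the Itgb7 values was not tested. Itgb7 was 4.04 to 9.70 times lower in cluster 1 than in cluster 5 over the 6 libraries. Among cells of cluster 5 with an Itga4 UMI, 74.0% to 84.3% also had an Itgb1 UMI, 58.9% to 71.3% an Itgb7 UMI and 88.0% to 95.8% at least 1 of these. Over all cells of cluster 5 the shares were 63.6% to 81.0% for Itgb1 and 43.3% to 65.6% for Itgb7. Among cells of cluster 1 with an Itga4 UMI the shares were 8.92% to 18.1% for Itgb1, 8.93% to 15.5% for Itgb7 and 18.2% to 28.6% for either. Over all cells of cluster 1 they were 5.55% to 11.8% for Itgb1 and 6.21% to 13.4% for Itgb7. Cells with an Itga4 UMI had medians of 9547 to 11234 UMIs per library in cluster 5 and 3621 to 5718 in cluster 1. Cells of cluster 5 were deeper, with medians of 9031 to 10716 UMIs per library against 3827 to 6154 in cluster 1, and a UMI not seen in a shallow cell does not show that the transcript is absent.

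Cluster 5 was mixed in its integrins. Its finer cluster 8, led by the MHC class II genes H2-Eb1, H2-Ab1 and H2-Aa, held 355 to 620 CPM of Itga4 and 134 to 216 CPM of Itgb7. Finer cluster 12, led by Cd36 and Cd300e, held 312 to 700 CPM of Itga4 and more Itgam than finer cluster 8 (560 to 759 against 439 to 513 CPM), with 32.5 to 83.0 CPM of Itgb7. Finer cluster 15, led by Vcam1, Fcna and Cd5l, held only 58.7 to 85.1 CPM of Itga4 and 3.50 to 17.4 CPM of Itgb7, with 103 to 219 CPM of Itgb1. Finer cluster 17, led by Elane and histone genes, held 172 to 239 CPM of Itgb7 in the 5 libraries with at least 20 cells. It made up 1.60%, 2.66% and 2.15% of cluster 5 in the femur and 3.68%, 11.5% and 7.09% in the mandible, higher without overlap, and its part in the Itgb7 values was not tested. Itga4 overlapped between the sites in finer clusters 8, 12 and 15. Finer cluster 15 was 24.8% of cluster 5 in femur replicate 1 and 6.55% to 12.5% in the other libraries. Among Monocytes by label, a subset looked at after the values were seen, Itgb7 measured 192, 216 and 171 CPM in the femur and 232, 224 and 222 CPM in the mandible, without overlap. In the same cells Itga4 measured 743, 681 and 589 CPM in the femur and 649, 375 and 506 CPM in the mandible, which overlapped.

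Itgam and Itgb2, the chains of CD11b/CD18, ran together over the clusters, and their libraries overlapped between the sites in each of clusters 0 to 7. The cells had been selected on CD11b. In the 4 male libraries that share library numbers 6 and 7, both genes were higher in the mandible within each number in clusters 0 to 4 and 7. In cluster 0 Itgb2 held 664 against 702 CPM and 418 against 519 CPM. What that number marks is not stated. Itgam was highest in clusters 0 and 3, at 839 to 1318 and 845 to 1349 CPM over the 6 libraries, and lowest in cluster 6, at 141 to 275 CPM. Itgb2 was highest in cluster 3, at 511 to 896 CPM, and lowest in cluster 6, at 90.7 to 183 CPM. Both were higher in cluster 0 than in the cycling cluster 4 in 6 of 6 libraries, by 1.79 to 2.46 times for Itgam and 1.46 to 1.95 times for Itgb2. In cluster 1 Itgam measured 869, 776 and 687 CPM in the femur and 815, 806 and 733 CPM in the mandible. Itgam shares its locus and strand with the longer model Gm49368, which is not among the gene symbols of the count matrices.

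Itgal, the alpha chain of CD11a/CD18, was highest in cluster 1 and was higher at each step of the series of clusters 4, 0, 3, 2 and 1 in 6 of 6 libraries. In cluster 4 it measured 69.4 to 80.6 CPM. In cluster 1 it measured 470, 537 and 419 CPM in the femur and 391, 301 and 358 CPM in the mandible, the only cluster of 0 to 7 in which its sites did not overlap (log2 fold change -0.30, SE 0.14).

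Itgax, the alpha chain of CD11c/CD18 known from dendritic cells and monocytes, was low throughout and lower in the mandible in several clusters. In cluster 1 it measured 26.6, 32.7 and 36.3 CPM in the femur and 16.6, 10.7 and 14.6 CPM in the mandible (log2 fold change -1.05, SE 0.19). In cluster 5 it measured 34.1, 17.4 and 20.6 CPM against 9.94, 10.0 and 9.50 CPM (-1.31, SE 0.23). The mandibular-derived libraries lay below all femur-derived ones, with an unadjusted edgeR p of 0.00043 and an adjusted p of 0.53 over all genes. DESeq2 gave an adjusted p of 0.00088 for it. The B lineage markers, the tooth transcripts and the share of finer cluster 17 were higher in the mandible in cluster 5, as given above. Their part in the Itgax values was not tested.

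Itgax was also lower without overlap in clusters 0 and 7. In cluster 0 it was at 2.85, 3.23 and 4.50 CPM in the femur and 1.45, 1.53 and 1.29 CPM in the mandible (-1.29, SE 0.28, edgeR adjusted p = 0.49, DESeq2 adjusted p = 0.029). With no filter on low counts the edgeR adjusted p was 0.030, where 0.303% of all genes were called. In cluster 7 it was at 17.5, 28.3 and 17.3 CPM against 8.25, 2.99 and 9.67 CPM (-1.46, SE 0.43, edgeR adjusted p = 0.58). The lowest library there held only 2 Itgax UMIs. The shares of cluster 7 cells with an Itgax UMI overlapped, at 6.38%, 13.95% and 13.3% in the femur and 7.45%, 1.98% and 5.77% in the mandible. The dendritic cell markers of cluster 7, Itgax among them, summed to 17.5 to 28.3 against 2.99 to 9.67 CPM. In femur replicates 1 and 2 and in every mandibular-derived library this sum was Itgax alone, so it restates Itgax. The tooth transcripts of cluster 7 summed to 0 CPM in the femur against 193 to 549 CPM in the mandible, without overlap. Their part in the Itgax and Itga4 values of cluster 7 was not tested. The Itgax levels of the sites overlapped in clusters 2, 3 and 4, with a log2 fold change of 0.06 (SE 0.48) in cluster 3. Within cluster 5 Itgax was highest among cells labelled DC, at 93.2 to 185 CPM in 5 libraries. Among Monocytes by label it was at 29.3, 18.0 and 20.7 CPM in the femur and 7.31, 4.35 and 4.04 CPM in the mandible. The fit in these Monocytes gave -2.12 with an edgeR adjusted p of 0.036 and called 0.0968% of all genes. This subset was looked at after the values were seen, which limits what that p can show.

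Itgb2l was low in cluster 1, where Itga4 was high, and its difference between the sites had the opposite sign. It was highest in cluster 0, at 291 to 479 CPM, and was lower in cluster 3 than in 0, in 2 than in 3 and in 1 than in 2, each in 6 of 6 libraries. In cluster 1 it measured 61.8, 28.2 and 41.5 CPM in the femur and 79.3, 116 and 83.7 CPM in the mandible, without overlap (log2 fold change 1.22, SE 0.30). In cluster 2 it measured 158, 91.1 and 97.1 CPM against 178, 197 and 171 CPM (0.70, SE 0.22), with an unadjusted edgeR p of 0.0098 and an adjusted p of 0.23. With no filter on low counts edgeR called it (adjusted p = 0.0032), along with 2.24% of all genes in cluster 2. A block on the library number in 4 male libraries also called it (1.06, edgeR adjusted p = 1.2e-08), along with 12.4% of all genes. What that number marks is not stated. Femur replicate 1 was the highest femur-derived library in both, and without it the log2 fold changes were 1.54 and 0.98. In cluster 2 an Itgb2l UMI was found in 37.9%, 27.8% and 29.0% of femur-derived and 47.7%, 48.6% and 47.1% of mandibular-derived cells. After thinning the shares were 9.62%, 7.02% and 6.46% against 12.97%, 13.3% and 12.8%, with p = 0.10 in the 2-sided exact permutation test, the smallest 3 libraries against 3 can give, and an adjusted p of 0.93. Igsf5 overlaps Itgb2l on the other strand and held 8.19% as many UMIs. Cerkl, which overlaps the end of Itga4 on the other strand, held 1.10% as many, and whether counting used the strand is not stated.

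Outside cluster 1 and without Itga4, 56 pairs of a member and a cluster remained (7 genes in 8 clusters, cluster 8 included), and 52 passed the filter on low counts. The edgeR quasi-likelihood test called 0 of these at a false discovery rate of 0.05, and 5 had an unadjusted p under 0.05, against 7.68% of all gene tests in these clusters. DESeq2 called 2, Itgax in clusters 0 and 5, where it called 0.234% and 0.332% of all genes. Of all genes tested, edgeR called 0.0163% in cluster 0, 0.0416% in cluster 2, 0.0108% in cluster 3, 0.0245% in cluster 4, 0.0842% in cluster 7 and 0% in clusters 5, 6 and 8. In cluster 1, left out of this count, it called 0.0842%. Of the shares of cells with a UMI in the same 56 pairs, 10 reached p = 0.10 as counted and 5 after thinning in the exact permutation test, with smallest adjusted p of 0.56 and 0.93. A p of 0.10 in that test means only that the libraries of the sites did not overlap. How often all genes reach it was not computed, so nothing is read from these counts. Whether the effect of site differed between cluster 5 and cluster 0 was tested with limma, which called 0 of 11741 genes. Itgax differed by 0.0015 on the log2 scale between these clusters (limma adjusted p = 1.00), and Itgb7 by 0.31 (limma adjusted p = 0.68).

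The machinery around the integrins was examined through 5 lists. The edgeR test called 0 genes in any of the 9 clusters in each list. Of the other integrin subunits (19 genes, 61 tested pairs of a gene and a cluster), 12 pairs had an unadjusted p under 0.05, as did 8.42% of all tested pairs of a gene and a cluster. The corresponding counts were 6 of 41 for integrin ligands (15 genes), 7 of 129 for inside-out activation (16 genes), 6 of 162 for outside-in signalling (20 genes) and 9 of 77 for neutrophil ageing and rolling (10 genes). In cluster 1 the median log2 fold changes of the lists ran from -0.12 to 0.06.

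Of the genes named by their abundance in these lists, none passed the test in cluster 1, though Itgb3, Flna, Skap2 and Cxcr2 did not overlap between the sites there. Of all genes tested in cluster 1, 16.9% were lower and 4.88% higher in the mandible without overlap. Itgav and Itgb3 encode the chains of the vitronectin receptor. Itgav measured 39.9 to 53.5 CPM in the femur and 36.1 to 50.6 CPM in the mandible. Itgb3 measured 13.86, 13.4 and 7.62 CPM against 13.94, 15.2 and 17.7 CPM (log2 fold change 0.57, edgeR adjusted p = 0.32). Flna, the actin crosslinker that holds integrins inactive, measured 321, 295 and 233 CPM in the femur and 365, 389 and 387 CPM in the mandible (log2 fold change 0.57, edgeR adjusted p = 0.16). Skap2, an adaptor of integrin activation, measured 1046 to 1186 CPM against 865 to 883 CPM (-0.20, edgeR adjusted p = 0.60). The immune adaptors Fcer1g and Tyrobp overlapped, at 1089 to 1885 against 1298 to 1541 CPM and 3048 to 4786 against 3332 to 3578 CPM.

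Receptors that steer neutrophils between marrow and blood, Cxcr4 and Cxcr2, did not pass the test in cluster 1. Cxcr4, the marrow retention receptor, measured 253, 250 and 176 CPM in the femur and 270, 165 and 185 CPM in the mandible in cluster 1 (log2 fold change 0.01, edgeR adjusted p = 0.99). Cxcr2, the egress receptor, measured 1558, 1660 and 1608 CPM against 1428, 1299 and 1307 CPM (-0.12, edgeR adjusted p = 0.78), and Cd44 overlapped. Of the alpha4 ligands in cluster 5, Vcam1 measured 787, 255 and 95.2 CPM in the femur and 271, 93.7 and 136 CPM in the mandible, and Fn1, fibronectin, 572, 812 and 327 CPM against 1067, 741 and 780 CPM. Both overlapped.

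The genes whose levels were most like those of Itga4 were Dusp16, Abi3, Ahcyl2, Tcf7l2 and Gngt2, with Pearson r of 0.94, 0.92, 0.92, 0.92 and 0.91 over 50 sums of a library and cluster with at least 20 cells, among 7137 genes. The sums share libraries and depths, so r is a description. Among the genes most like Itgb1 were Magt1 and Ddhd1 (0.94 and 0.94), and Itgb7 most like Irf5, Il10ra and Zeb2 (0.96, 0.94 and 0.93). Itgam was most like Ankrd22, Atp8b4 and Tbc1d2 (0.95, 0.94 and 0.94), Itgal like Fyb, Mbp and Ndrg1 (0.97, 0.97 and 0.97), Itgax like Sirpb1c, Slfn5 and Nlrp1b (0.92, 0.91 and 0.91), Itgb2 like Tbc1d2b, Inpp4a and Mfsd14b (0.96, 0.95 and 0.94), and Itgb2l like Cd177, Syne1 and Adpgk (0.98, 0.98 and 0.97). Cd177 encodes a neutrophil surface protein. Between members, r was 0.93 for Itgam with Itgb2, 0.70 for Itga4 with Itgb1, 0.78 for Itga4 with Itgb7 and -0.78 for Itga4 with Itgb2l.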

How the data were processed

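Per gene and barcode, the deposited matrices give unnormalised counts of UMIs that the authors made with Cell Ranger (7.0.1 in the submitters' processing notes) on mm10 without pooling of replicates. The metadata deposited by the authors gives, per kept cell, the counts of UMIs, the mitochondrial share in percent, clusters of integrated values, phase calls and reference labels as other values. Kept cells had 601 to 5999 genes and at most 19.8% mitochondrial UMIs. The deposited marker table of cluster log2 fold changes and p-values was not used. No doublet caller was run. Library pairs shared at most 0.65% of barcodes.

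UMIs were summed per library and cluster (resolution 0.1) and tested with edgeR 4.0.16 in R 4.3.3 (quasi-likelihood, TMM factors, filterByExpr, Benjamini-Hochberg over all genes of a cluster, threshold 0.05). SEs came from the fit. Alternatives used DESeq2 1.42.0 and others given below. The site effects of clusters 5 and 0 were compared with limma 3.58.1. The edgeR step was tested on simulated data. The named genes were all 8 members, the 5 genes most like Itga4 and 3 most like each other member, called list genes, the 2 most abundant genes per list, and Cxcr4. Some genes that this rule names are not reported here. Members and lists were chosen with earlier results of these data known. Counting error is small for the deep sums, and cells are not replicates.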

Additional observations from a re-analysis of the deposited data

How the results depend on the processing

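The count of called pairs outside cluster 1 and without Itga4 was 0 of 52. It stayed at 0 with RLE factors, with G1 cells alone, with cells thinned to 1000 UMIs and when each library was left out in turn. It was 2 with DESeq2 (Itgax in clusters 0 and 5), 2 with no filter on low counts (Itgax in cluster 0, Itgb2l in cluster 2) and 1 in the reference-labelled cells alone (Itgax in cluster 5, where 0.0968% of all genes were called). The replicate numbers of the titles did not pair the libraries (correlations of deviations from -0.40 to 0.18), and the replicate block on them called 0. A replicate block on the library number was fitted in the 4 male libraries that share numbers 6 and 7. Correlations of deviations within these numbers were 0.29 to 0.50 in clusters 0 to 3 and 0.0031 to 0.33 in clusters 4 to 7. The block called 6 of 53 pairs (Itgax in cluster 0, Itgb7 and Itgb2l in clusters 2 and 3, Itgb2l in cluster 7). Itgb2l in cluster 2 had 1.06 and an edgeR adjusted p of 1.2e-08. This fit called 4.60%, 12.4%, 5.28% and 1.36% of all genes in clusters 0, 2, 3 and 7. Within both numbers Itgam and Itgb2 were higher in the mandible in clusters 0 to 4 and 7, as in cluster 2 (Itgam 843 against 932 and 691 against 848 CPM). The labels do not say what that number marks. Of all 68 tested pairs of a member and a cluster, 33 changed sign under at least 1 alternative, among them Itga4 in cluster 8 alone, Itgax in clusters 3 and 4 and Itgb1 in cluster 3. Of the 25 pairs followed one by one, 4 did. Leaving out each library in turn gave -0.15 to 0.095 for Itgam in cluster 5, -0.095 to 0.20 for Itgb2 in cluster 1, -0.35 to 0.025 for Itgb2 in cluster 5 and -0.21 to 0.34 for Itgb2l in cluster 5. G1 cells alone gave 0.072 for Itgam, 0.023 for Itgb2 and 0.19 for Itgb2l in cluster 5, and the title block gave 0.022 for Itgb2l. The cause was not tested. Itga4 in cluster 1 ranged from -1.38 to -1.16 and in cluster 2 from -1.32 to -1.05 over the alternatives. Itgax in cluster 5 ranged from -2.12 to -1.01 and Itgb2l in cluster 1 from 0.94 to 1.66. Itga4 was at -0.83 in cluster 0 with thinned cells and at -0.58 in cluster 4 with G1 cells alone. Shallow cells limit shares of cells with a UMI.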
